A study of Mus musculus with 6 samples.

Results

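The sarcomere is the contractile unit of heart muscle, and the transcripts of 34 of its genes, out of 26835 genes in the table, are described here. They were taken by symbol from a fixed list and each symbol had a single row. By the place of the protein, 9 belong to the thick filament with its kinase and folding factors, 8 to the thin filament, 5 to titin and the M-band and 12 to the Z-disc. RNA was sequenced from hearts of C57BL/6 mice, with the genotype labelled as wide type, that were 7 to 8 weeks old and weighed 20 g, within 2 g. Control mice received 10% DMSO intraperitoneally. CFZ mice received carfilzomib, an irreversible proteasome inhibitor used in multiple myeloma, at 8 mg/kg by the same route. In CFZ_EA mice the same carfilzomib dose was combined with electroacupuncture, a current passed through needles, at the forelimb acupoint PC6. Each group had 2 libraries. Days 0, 2, 4 and 6 are listed for all 3 groups without a day of sampling, and neither the region of the heart nor whether the libraries of a group came from separate mice is stated. The p-values therefore measure only the spread between these libraries, which may be technical.

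In a sarcomere, myosin thick filaments slide along actin thin filaments, and calcium bound by troponin C sets off the movement. Titin spans from the Z-disc, where thin filaments are anchored, to the M-band, where thick filaments are cross-linked. The adult mouse ventricle runs almost wholly on the fast alpha myosin heavy chain Myh6, whereas its slower neighbour, the beta heavy chain Myh7, belongs to the fetal heart and is a classic sign of cardiac stress. Sarcomere proteins are also folded and turned over by dedicated chaperones and by the proteasome, the target of carfilzomib.

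The myosin heavy chain genes Myh6, Myh7 and Myh7b each hold an intronic microRNA, so a reader following the heavy chains below meets these small RNAs at the same loci. The mature sequences are from RefSeq on GRCm38.p6, with the seed (bases 2 to 8) in capitals. The pair inside Myh6 and Myh7 shares a seed, and the seed inside Myh7b differs from it only at base 8.
mmu-miR-208a-3p: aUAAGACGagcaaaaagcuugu
mmu-miR-208b-3p: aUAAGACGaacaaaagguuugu
mmu-miR-499-5p: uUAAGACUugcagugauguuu
They lie at chr14:54949072-54949093 and chr14:54975710-54975731 on the minus strand and at chr2:155622893-155622913 on the plus strand. The libraries were selected on oligo(dT), so counts at these models are not levels of the mature microRNA. Mir208b held 76 and 66 counts in control, 88 and 156 in CFZ and 149 and 181 in CFZ_EA, Mir208a between 1 and 16 in each library, and Mir499 held 1 count in all.

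Myh6 and Myh7 stand in a row on the minus strand of chromosome 14, at 54941921 to 54966641 and 54970684 to 54994626 (GRCm38). Their 250 bases before the RefSeq start are shown because these neighbours differ widely in level in the adult heart. Capitals mark the M-CAT element, CATTCC or its reverse complement, which TEAD factors are known to bind in muscle promoters.
Myh6 promoter: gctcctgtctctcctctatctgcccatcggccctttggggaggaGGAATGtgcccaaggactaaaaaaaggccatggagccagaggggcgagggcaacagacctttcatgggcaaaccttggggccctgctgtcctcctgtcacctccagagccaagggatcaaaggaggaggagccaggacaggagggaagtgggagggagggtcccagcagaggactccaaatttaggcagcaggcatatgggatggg
Myh7 promoter: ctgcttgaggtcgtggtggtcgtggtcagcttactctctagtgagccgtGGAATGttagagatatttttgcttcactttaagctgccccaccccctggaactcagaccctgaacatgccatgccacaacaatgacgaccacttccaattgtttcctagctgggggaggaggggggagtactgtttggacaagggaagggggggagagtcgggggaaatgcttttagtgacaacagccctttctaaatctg
These windows are chr14:54966608-54966857 and chr14:54994627-54994876, both read on the minus strand of GRCm38.p6. The element lies at -206 to -201 from the Myh6 start and at -201 to -196 from the Myh7 start. Among 30 of the 34 genes with a RefSeq window, 9 (30.0%) held it on either strand, as did 12.6% of 27025 windows of the same length. A GATA core, GATAA, was found in 9 (30.0%, against 23.0%), an E-box, CANNTG, in 25 (83.3%, against 66.1%) and a TATA box, TATAAA, in 3 (10.0%, against 12.9%). The CArG box bound by SRF was found in 4 (13.3%, against 1.39%), namely Myl3, Actc1, Myom1 and Ldb3, and the MEF2 site in 5 (16.7%, against 3.02%), namely Mybpc3, Ttn, Myom3, Myoz2 and Synpo2l. Fhod3, Myom2, Tcap and Nexn were not matched.

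Estimated counts ran from 50013990 to 75742448 per library, and the sarcomere genes took between 9.79% and 11.4% of them. Control replicate 2 lay apart from the rest in log2 CPM (counts scaled to library depth), at 48.6 on a leading axis that held 36.4% of the variance, against -23.2 to 0.636 for the other libraries. The summed FPKM (fragments per kilobase of transcript, scaled to library depth) of 8 fibroblast markers was 1036 in that library and 127 to 203 in the others, and that of 6 macrophage markers was 699 against 175 to 240. The fibroblast sum of control replicate 2 was mostly collagen, with Col3a1 at 349 and Col1a1 at 287 FPKM, against 31.5 and 21.3 FPKM in control replicate 1. The other fibroblast markers were also higher in control replicate 2, by less. Dpt stood at 183 against 71.4 FPKM, Lum at 41.2 against 16.5 FPKM and Pdgfra at 3.78 against 2.48 FPKM. Dcn stood at 63.8 against 43.4 FPKM and Tcf21 at 5.34 against 4.89 FPKM. The 7 cardiomyocyte markers, all detected and mostly Mb in amount, summed to 8137 FPKM in control replicate 2 and to between 10564 and 12531 FPKM in the others. The 8 atrial markers summed to 5721 FPKM in CFZ_EA replicate 2, 973 FPKM in CFZ_EA replicate 1, 2857 and 1617 FPKM in control, and 342 and 209 FPKM in CFZ.

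In level per length, 12 of the 34 stood among the first 100 genes of the table. The highest was Actc1, cardiac alpha-actin (ENSMUSG00000068614), at a mean of 8276 FPKM over the 6 libraries, the 11th gene of all. The light chains Myl3 and Myl2 followed at 4541 and 4434 FPKM and overlapped from library to library. Myh6 measured 3378 FPKM and the troponins Tnnc1, which binds calcium, and Tnni3, which inhibits contraction, measured 3009 and 2649 FPKM, again with overlapping libraries. Tpm1, the tropomyosin that covers actin, measured 1734 FPKM, and Tcap, the telethonin that caps titin in the Z-disc, 1169 FPKM. Mybpc3, myosin-binding protein C, and Tnnt2, which ties troponin to tropomyosin, measured 869 and 805 FPKM.

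Some Z-disc genes stood in a middle tier. The intermediate filament gene Des measured 594 FPKM, the cross-linker alpha-actinin Actn2 568 FPKM, the calcineurin-binding Myoz2 246 FPKM and the PDZ-LIM protein gene Ldb3 139 FPKM. Smyd1, a methyltransferase with a part in myosin assembly, measured 151 FPKM, the M-band proteins Myom2 and Myom1 119 and 82.9 FPKM, the actin nucleator Lmod2 114 FPKM and Tmod1, which caps thin filaments, 73.4 FPKM. Myh7 stood at 72.0 FPKM, near Mylk3, the kinase of the ventricular light chain, at 57.9 FPKM, and the myosin chaperone Unc45b at 50.9 FPKM. Between 13.6 and 34.1 FPKM lay Obsl1, Nexn, Pdlim5, Mypn, Cmya5, Flnc, Synpo2l and Fhod3, a formin of the thin filament. At the low end were Ttn, the giant spring, at 8.79 FPKM with 42697 counts in control replicate 1, the ancient heavy chain Myh7b at 7.48 FPKM, Nebl, the cardiac nebulette, at 3.59 FPKM and Myom3 at 0.548 FPKM. Ttn has the longest transcript of the set, 106824 bases in GENCODE M21, and its low value is a value per length.

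**Figure D1:**
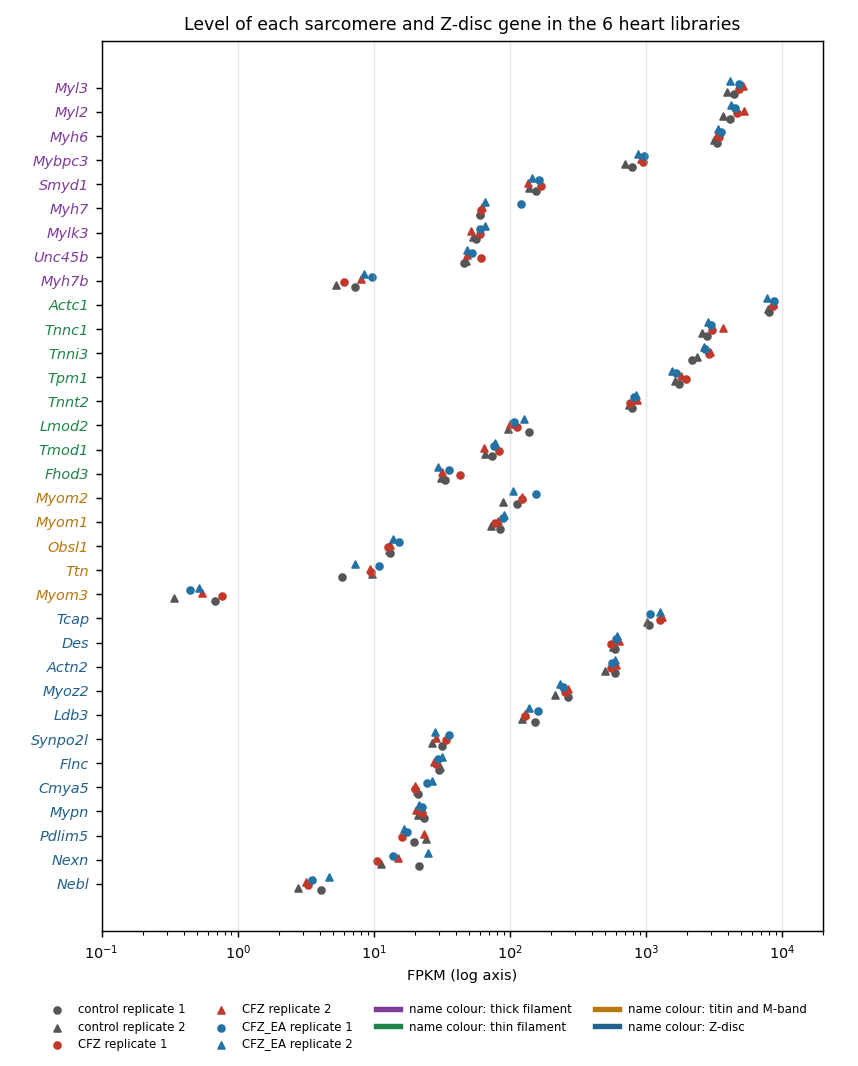
FPKM (log axis) of each of the 34 genes in the 6 libraries, ordered within each class by mean level. Circles are replicate 1 and triangles replicate 2, and the colour of a point gives the group. Actc1 at a mean of 8276 FPKM and Myom3 at 0.548 FPKM bound the range, and Myh7 shows 1 library, CFZ_EA replicate 1, away from the other 5.

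The first comparison asks what carfilzomib does to these transcripts. No sarcomere gene passed the test in CFZ against control, and most point estimates lay slightly above 0, in the thick and thin filaments more than in the Z-disc. edgeR's quasi-likelihood test over 10329 genes with a mean of at least 1 FPKM, a filter that Myom3 alone of the 34 failed, called 0 of 33 sarcomere genes at an adjusted p under 0.05, against 0.029% of all genes. Without adjustment 1 gene was higher and 0 lower at p under 0.05, against 1.82% and 5.9% of all genes, and DESeq2 called 1 higher against 0.261%. Log2 fold changes were above 0 for 26 of 33 (49.5% of all genes tested) with a median of 0.12, against -0.0034 over all genes. The 95% intervals lay within a 2-fold change either way for 31 of 33, against 76.9% of all genes. The exceptions were Ttn, with an interval from 0.819-fold to 2.01-fold, and Nexn, from 0.385-fold to 1.71-fold.

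The size of the median depended on which control library was kept, and these values cannot tell which control is the typical one. On scaled log2 CPM, 30 of 33 sarcomere genes were lower in control replicate 2 than in control replicate 1, with a median difference of -0.25 against 0.011 over all genes, and 27 of 33 were lower on the FPKM scale. Without control replicate 2, the library with the high fibroblast and macrophage sums, 16 of 33 genes were above 0 and the median was -0.011. Without control replicate 1 it was 0.29, with 31 of 33 above 0. With library totals as the only scaling 24 of 33 were above 0, while the share of all genes above 0 was 39.5%. The part of cell composition in these medians was not tested, and in bulk heart RNA fewer muscle cells and less RNA per muscle cell cannot be told apart.

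Among thick filament genes 9 of 9 had positive estimates in CFZ against control, with a median log2 fold change of 0.23. Myl2, the ventricular regulatory light chain, measured 4187 and 3709 FPKM in control and 4686 and 5290 FPKM in CFZ. It measured 4513 and 4222 FPKM in CFZ_EA. Both CFZ libraries were above both controls and both CFZ_EA libraries, and the log2 fold change was 0.39 ± 0.21 (SE), with adjusted p = 0.691 by edgeR. Mybpc3 measured 797 and 705 FPKM in control and 955 and 914 FPKM in CFZ, also without overlap, with a log2 fold change of 0.36 ± 0.17. Myl3, the essential light chain, had 0.30 ± 0.21 and measured 4437 and 3921 FPKM in control, with 4802 and 5146 FPKM in CFZ and 4802 and 4140 FPKM in CFZ_EA. The folding factor Unc45b had 0.28 ± 0.13, Myh7b 0.23 ± 0.25, Myh6 0.11 ± 0.22 and Smyd1, Myh7 and Mylk3 between 0.083 and 0.089. Without control replicate 2 Myl2 had 0.24, Mybpc3 0.22, Myl3 0.15, Myh6 0.0064 and Myh7b -0.046, and the thick filament median was 0.020. Without CFZ replicate 2 Myl2 had 0.25 and Myl3 0.20, and Myh7b had -0.057.

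Tnni3, cardiac troponin I (ENSMUSG00000035458, chromosome 7, 4518305 to 4522794), was the gene that came nearest to a call. It measured 2179 and 2396 FPKM in control, with 2926 and 2970 FPKM in CFZ and 2743 and 2679 FPKM in CFZ_EA. All 4 carfilzomib libraries exceeded both controls. The log2 fold change of CFZ against control was 0.42 ± 0.16, a 1.34-fold difference with an interval from 1.02-fold to 1.76-fold and edgeR adjusted p = 0.621. It was 0.42 without either control library in turn and from 0.36 to 0.48 over all fits with 1 library left out. DESeq2, which estimates the spread differently, gave adjusted p = 0.0132.

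Other thin filament genes had smaller estimates. With Tnni3 included, 7 of 8 were above 0 and the median of the class was 0.19, which leaving out control replicate 2 took to 0.094 and leaving out control replicate 1 to 0.31. Tnnc1 measured 2820 and 2602 FPKM in control and 3071 and 3673 FPKM in CFZ, with a log2 fold change of 0.37 ± 0.19, and 0.18 without CFZ replicate 2. CFZ_EA libraries measured 3003 and 2887 FPKM. The CFZ libraries were both above the controls but differed more from each other than the controls did. Actc1 measured 8039 and 7851 FPKM in control, with 8621 and 8645 FPKM in CFZ and 8749 and 7749 FPKM in CFZ_EA. Its control and CFZ values did not overlap, and the spread between the CFZ_EA replicates covered all the other libraries. Tpm1, Actc1, Tmod1 and Tnnt2 had 0.20, 0.17, 0.13 and 0.12, and Fhod3 had 0.25 ± 0.17. Lmod2 was the 1 estimate under 0, at -0.094 ± 0.22.

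Titin and M-band estimates were above 0 in 4 of 4 tested genes, with a median of 0.20, and 0.041 without control replicate 2. Myom2 measured 113 and 89.8 FPKM in control and 124 and 123 FPKM in CFZ. The CFZ values were nearly equal and above both controls, and the log2 fold change was 0.34 ± 0.24, and 0.12 without control replicate 2. Ttn measured 5.84 and 9.76 FPKM in control and 9.60 and 9.44 FPKM in CFZ, so that control replicate 1 was the low one of these 4. Its log2 fold change was 0.36 ± 0.27. Myom1 and Obsl1, a partner of titin at the M-band, had 0.067 and 0.041. Myom3, another M-band protein, measured 0.679 and 0.341 FPKM in control and 0.760 and 0.542 FPKM in CFZ, which overlap.

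Z-disc estimates were split, 6 of 12 above 0 and 6 below, with a median of -0.0013, which leaving out control replicate 1 took to 0.26 and leaving out control replicate 2 to -0.069. Tcap measured 1052 and 1015 FPKM in control and 1281 and 1324 FPKM in CFZ. The groups did not overlap and the replicates were close, while CFZ_EA, at 1065 and 1276 FPKM, lay between them. The log2 fold change of CFZ against control was 0.39 ± 0.16 with edgeR adjusted p = 0.647, and 0.30 without control replicate 2. Nexn, an actin-binding protein of the Z-disc, measured 21.5 and 11.3 FPKM in control and 10.6 and 15.2 FPKM in CFZ. Its groups overlapped widely, and its log2 fold change of -0.30 ± 0.44 became 0.32 without control replicate 1. Myoz2, Synpo2l, Actn2, Des and Cmya5 had between 0.0016 and 0.16, and Mypn, Ldb3, Nebl, Flnc and Pdlim5 had between -0.073 and -0.0042.

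Over all classes the FPKM values of CFZ lay above both controls in 12 of 33 genes, against 12.5% of all genes tested, and below both in 2 of 33, against 20.8%. The 12 were Myh6, Myh7, Myl2, Myl3, Mybpc3, Unc45b, Actc1, Tpm1, Tnni3, Tnnc1, Myom2 and Tcap. Most are abundant filament proteins. The 2 below were Cmya5, a binding partner of titin and desmin, and the filamin gene Flnc, whose values were 30.2 and 30.7 FPKM in control and 28.5 and 27.6 FPKM in CFZ. On scaled log2 CPM the groups overlapped for both of these and for Myh6 and Myh7.

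**Figure D2:**
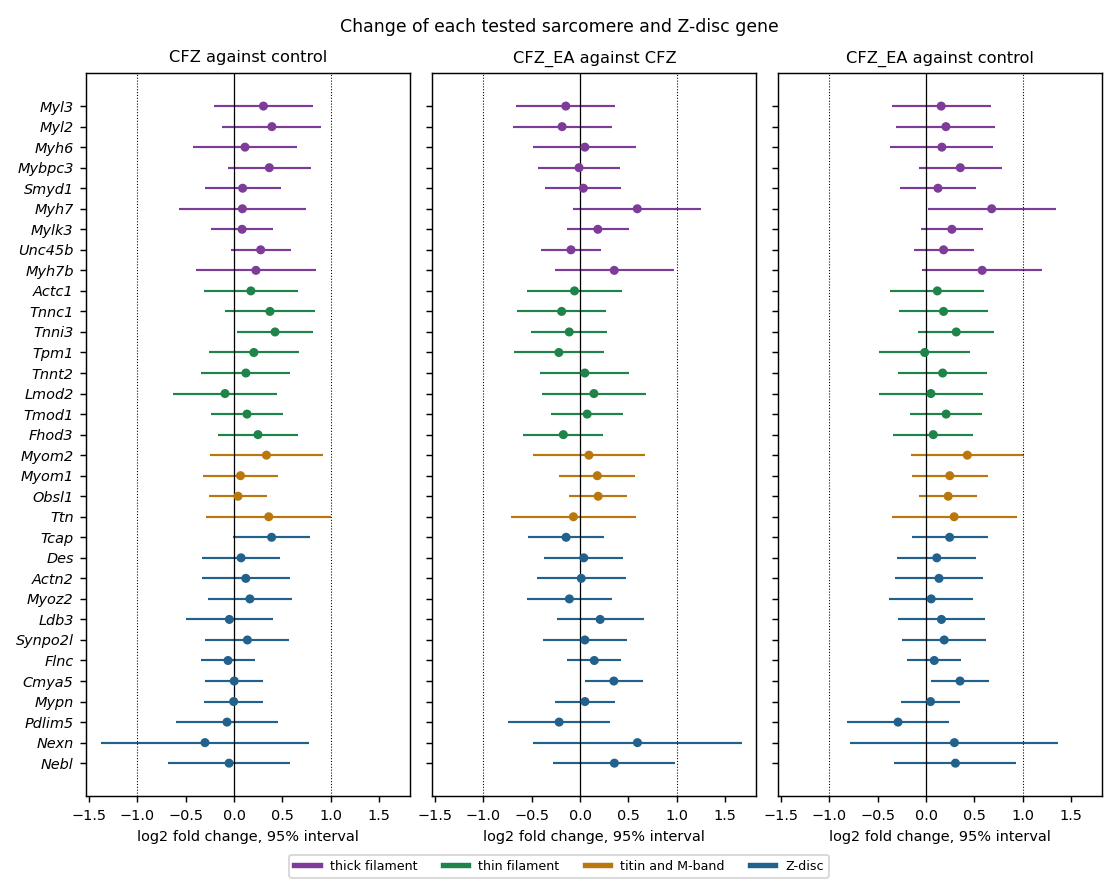
Log2 fold change from edgeR (points) for the 33 tested genes in the 3 comparisons, coloured by class. Lines are 95% intervals derived from edgeR's test statistic. Dotted lines mark 2-fold. In CFZ against control the points of the thick filament are all above 0 and those of the Z-disc are spread around it, and Myh7 lies highest in CFZ_EA against control at 0.68.

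The second comparison asks what electroacupuncture adds in carfilzomib-treated mice. No sarcomere gene passed in CFZ_EA against CFZ, and the estimates lay on both sides of 0, with the largest in Nexn, Myh7, Nebl, Myh7b and Cmya5. edgeR called 0 of 33, against 0.0194% of all genes, and at p under 0.05 before adjustment 1 gene was higher and 0 lower (2.01% and 1.07% of all genes), and DESeq2 called 0 of 33 (0.368% higher and 0.165% lower of all genes). Log2 fold changes were above 0 for 20 of 33, against 48.1% of all genes, and the median was 0.049 against -0.0084. CFZ_EA values lay above both CFZ values in 9 of 33 genes, against 15.1% of all genes, and below both in 6 of 33, against 17.7%. Intervals lay within 2-fold for 31 of 33, against 80.1% of all genes, and the exceptions were Myh7, from 0.953-fold to 2.38-fold, and Nexn, from 0.715-fold to 3.19-fold.

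Myh7 (ENSMUSG00000053093) was higher in a single CFZ_EA library. It measured 60.7 and 60.8 FPKM in control, 61.6 and 62.5 FPKM in CFZ, 121 FPKM in CFZ_EA replicate 1 and 65.8 FPKM in CFZ_EA replicate 2. The other 5 libraries lay within a few FPKM of each other, while CFZ_EA replicate 1 stood far above them with 74499 counts. The log2 fold change of CFZ_EA against CFZ was 0.59 ± 0.27 with edgeR adjusted p = 0.9997, and 0.12 without CFZ_EA replicate 1. Against control it was 0.68 ± 0.27 with edgeR adjusted p = 0.848, and 0.20 without that library. Counts at Mir208b, inside Myh7, were 149 in CFZ_EA replicate 1 and 156 in CFZ replicate 2, where Myh7 itself was at 62.5 FPKM.

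The other heavy chains also had their highest value in that library, closer to the rest. Myh6 measured 3346 and 3159 FPKM in control, with 3422 and 3362 FPKM in CFZ and 3574 and 3405 FPKM in CFZ_EA, with a log2 fold change of 0.050 ± 0.22 for CFZ_EA against CFZ. Myh7b measured 7.30 and 5.27 FPKM in control, with 6.08 and 8.12 FPKM in CFZ and 9.67 and 8.46 FPKM in CFZ_EA. Both CFZ_EA libraries were the highest of the 6, and the log2 fold change was 0.35 ± 0.25 against CFZ and 0.58 ± 0.25 against control (edgeR adjusted p = 0.9997 and 0.848). Without CFZ replicate 2 the difference from CFZ was 0.64, without CFZ replicate 1 it was 0.12, and without control replicate 2 the difference from control was 0.31.

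Cmya5, also called myospryn (ENSMUSG00000047419, chromosome 13, 93040713 to 93144724), had the smallest unadjusted p among sarcomere genes in both comparisons with CFZ_EA. It measured 21.2 and 20.8 FPKM in control, with 20.3 and 20.2 FPKM in CFZ and 24.5 and 26.7 FPKM in CFZ_EA. Replicates were close in all 3 groups, and both CFZ_EA libraries were above the other 4. The log2 fold change was 0.35 ± 0.12 against CFZ (unadjusted p = 0.0288, edgeR adjusted p = 0.9997) and 0.35 ± 0.12 against control (unadjusted p = 0.0283, edgeR adjusted p = 0.848). With 1 library left out it ran from 0.27 to 0.43 and from 0.27 to 0.44.

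Nexn and Nebl, which bind actin at the Z-disc, differed between the CFZ_EA replicates. Nexn measured 13.9 and 24.97 FPKM in CFZ_EA. Nebl measured 4.10 and 2.79 FPKM in control, with 3.27 and 3.19 FPKM in CFZ and 3.49 and 4.70 FPKM in CFZ_EA. CFZ_EA replicate 2 was the highest library for both genes, and control replicate 1 the next. Their log2 fold changes against CFZ were 0.59 ± 0.44 and 0.36 ± 0.26, and without CFZ_EA replicate 2 they were 0.089 and 0.11. In CFZ_EA replicate 2 the atrial marker sum was also the highest of the 6 libraries, with control replicate 1 next, and the part of atrial tissue in these values was not tested.

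Among abundant filament genes the estimates for CFZ_EA against CFZ lay on both sides of 0, and their intervals all held 0. Tpm1 measured 1747 and 1650 FPKM in control, with 1973 and 1807 FPKM in CFZ and 1669 and 1554 FPKM in CFZ_EA, with a log2 fold change of -0.22 ± 0.19. Tnnc1, Myl2, Myl3, Tcap and Tnni3 had -0.19, -0.19, -0.15, -0.15 and -0.11, while Actc1 had -0.058, Mybpc3 -0.011, Tnnt2 0.049 and Myh6 0.050. Without CFZ replicate 2 Tnnc1 stood at 0.0036, and without CFZ_EA replicate 1 Tcap stood at 0.0040. By class the medians were 0.034 for the thick filament, -0.085 for the thin filament, 0.13 for titin and the M-band and 0.050 for the Z-disc. Without CFZ_EA replicate 1 the thick filament stood at -0.028 and titin and the M-band at -0.029, and without CFZ replicate 2 the thin filament stood at -0.023 and the Z-disc at 0.16.

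**Figure D3:**
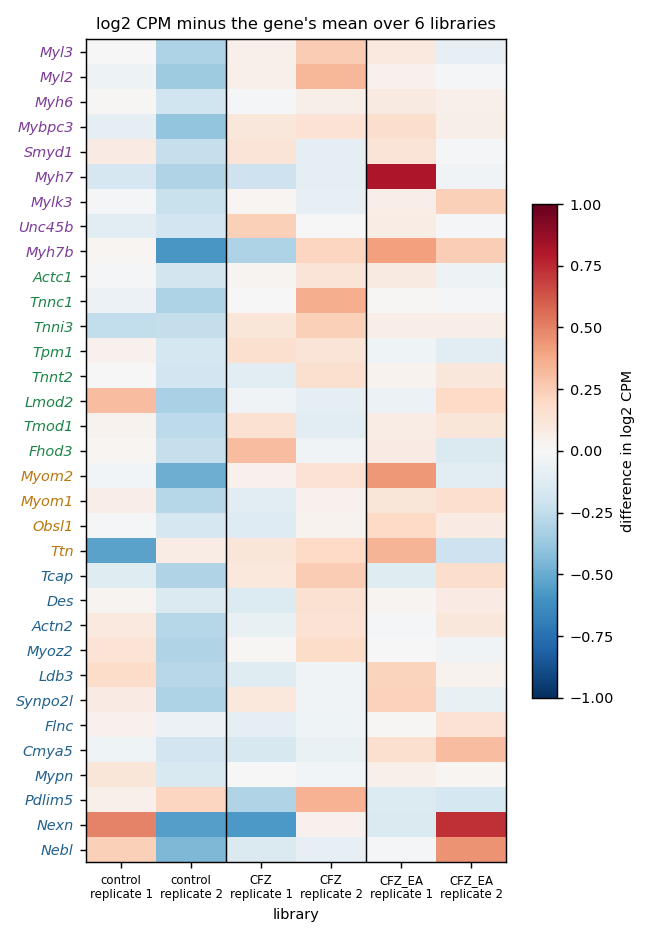
Scaled log2 CPM of each of the 33 tested genes minus its own mean over the 6 libraries, with libraries in columns and vertical lines between groups. Control replicate 2 is below the mean for most genes, Myh7 is high in CFZ_EA replicate 1, and Nexn is high in CFZ_EA replicate 2 and control replicate 1.

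The third comparison sets CFZ_EA against control and shares its libraries with the other comparisons, so its values are not independent of them. No sarcomere gene passed. edgeR called 0 of 33 and 0% of all genes, and at p under 0.05 before adjustment 2 genes, Myh7 and Cmya5, were higher and 0 lower (1.47% and 3.66% of all genes), and DESeq2 called 0 of 33 (0.252% of all genes in each direction). Estimates were above 0 for 31 of 33, against 49.7% of all genes, with a median of 0.18 against -0.0013, and Pdlim5 and Tpm1 were below 0. Without control replicate 2 the count above 0 was 22 of 33, against 50.6% of all genes, and the median was 0.058. With library totals as the only scaling the count was 28 of 33, against 36.6% of all genes. CFZ_EA lay above both controls in 16 of 33 genes, against 10.5% of all genes, and below both in 1 of 33, against 22.1%. That gene was Pdlim5, which links kinases to the Z-disc and measured 19.7 and 24.1 FPKM in control, with 16.1 and 23.5 FPKM in CFZ and 17.5 and 16.6 FPKM in CFZ_EA. Intervals lay within 2-fold for 29 of 33, against 77.9%, the others being Myh7, Myh7b, Myom2 and Nexn. Myom2 measured 157 and 105 FPKM in CFZ_EA, with a log2 fold change of 0.43 ± 0.24, and 0.14 without CFZ_EA replicate 1. Mybpc3 measured 970 and 874 FPKM in CFZ_EA, above both controls, with 0.35 ± 0.17.

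Sarcomere proteins exist as fetal, atrial or skeletal isoforms beside the ventricular ones, and the share of the minor gene in the summed FPKM of a pair was compared over the libraries. Myh7 made up 1.78% and 1.89% of Myh6 and Myh7 together in control, 1.77% and 1.82% in CFZ and 3.27% and 1.896% in CFZ_EA. Myh6 made up nearly all of the heavy chain pool in each library, and CFZ_EA replicate 1 alone had a higher Myh7 share. The slow skeletal and fetal Tnni1 stayed between 0.000759% and 0.0145% of Tnni3 and Tnni1. Tpm2, a tropomyosin of slow and smooth muscle, made up between 0.401% and 1.25% of Tpm1 and Tpm2, with the highest share in control replicate 2 and the next in CFZ_EA replicate 2.

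The atrial light chains differed most between libraries. Myl7 made up 14.6% and 9.77% of Myl2 and Myl7 in control, 1.63% and 0.217% in CFZ and 5.08% and 24.6% in CFZ_EA. Myl4 made up 2.48% and 1.67% of Myl3 and Myl4 in control, 0.290% and 0.0360% in CFZ and 0.886% and 4.93% in CFZ_EA. Both shares were lowest in the CFZ libraries and followed the order of the 8 atrial markers, of which these genes are 2. The share of skeletal alpha-actin Acta1 in Actc1 and Acta1 was 2.82% and 2.06% in control, 0.287% and 2.53% in CFZ and 2.77% and 4.90% in CFZ_EA, so that CFZ replicate 1 alone was low. No test was run on these shares, which are given as a description.

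**Figure D4:**
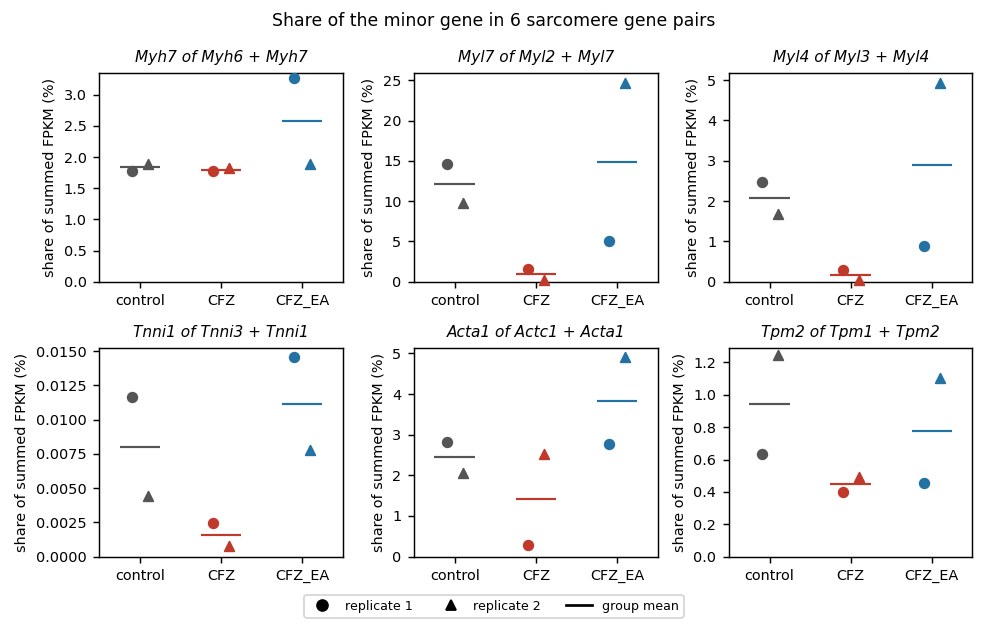
Share of the minor gene in the summed FPKM of 6 pairs (percent), with circles for replicate 1, triangles for replicate 2 and lines for group means. Myh7 reaches 3.27% in CFZ_EA replicate 1 alone, Myl7 and Myl4 are lowest in CFZ, and Acta1 is low in CFZ replicate 1 at 0.287%.

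A further 52 genes of sarcomere isoforms, Z-disc partners and filament regulators were listed beside the 34, and 45 of them were tested. edgeR called 0 of 45 in each comparison, against 0.029%, 0.0194% and 0% of all genes. At p under 0.05 before adjustment 1 was higher and 7 lower in CFZ against control, where 1.82% and 5.9% of all genes were. In CFZ_EA against CFZ 5 were higher and 0 lower (2.01% and 1.07% of all genes), and in CFZ_EA against control 1 was higher and 3 lower (1.47% and 3.66%). DESeq2 called 1 higher and 4 lower in CFZ against control (0.261% and 1.07% of all genes), 0 in CFZ_EA against CFZ (0.368% and 0.165%), and 0 higher and 1 lower in CFZ_EA against control (0.252% each way). Both lower counts in CFZ against control, 7 and 4, include Tnni2, which passed the filter of 1 FPKM through its control values. In CFZ against control 22 were above 0 and 23 below with a median of -0.0052, in CFZ_EA against CFZ 24 and 21 with 0.036, and in CFZ_EA against control 28 and 17 with 0.074. In CFZ against control and in CFZ_EA against CFZ the largest estimates came from atrial genes. Mybphl, a myosin-binding protein of the atrium and conduction system, measured 40.1 and 25.8 FPKM in control, with 3.34 and 0.534 FPKM in CFZ and 13.0 and 86.5 FPKM in CFZ_EA. Its log2 fold changes were -4.07 ± 1.15 for CFZ against control and 4.73 ± 1.18 for CFZ_EA against CFZ, the latter 2.77 without CFZ_EA replicate 2. Myl7 and Myl4 had -3.64 ± 1.15 and -3.50 ± 1.13 for CFZ against control, and 4.24 ± 1.18 and 4.08 ± 1.16 for CFZ_EA against CFZ. Without CFZ_EA replicate 2 the latter were both 2.47. The CFZ against control values of all 3 atrial genes lay between -5.83 and -5.51 without CFZ replicate 1. Without CFZ replicate 2 the same values were smaller in size, at -3.31 for Mybphl, -2.86 for Myl7 and -2.70 for Myl4.

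Outside the atrial genes, Fhl1, a LIM-domain protein that binds titin, measured 16.9 and 24.8 FPKM in control, with 11.6 and 12.0 FPKM in CFZ and 10.3 and 12.2 FPKM in CFZ_EA. All carfilzomib libraries were below both controls. The log2 fold change of CFZ against control was -0.76 ± 0.18, with adjusted p = 0.608 by edgeR and 0.0431 by DESeq2. For CFZ_EA against control it was -0.81 ± 0.18, with adjusted p = 0.848 by edgeR and 0.0444 by DESeq2. Without control replicate 2 these differences were -0.53 and -0.59. In CFZ against control Fhl1 was not the largest non-atrial estimate. Myl1 had -1.77, Tnni2 -1.50, Pdlim3 -1.36 and Tpm2 -0.84, and Tmod4 had the highest estimate of the list, at 0.73. Tnni2, fast skeletal troponin I, measured 1.86 and 1.72 FPKM in control, with 0.715 and 0.502 FPKM in CFZ and 0.805 and 1.18 FPKM in CFZ_EA. It passed the filter of 1 FPKM through its control values, with means of 0.609 FPKM in CFZ and 0.992 FPKM in CFZ_EA, so its difference of -0.79 ± 0.34 (log2, CFZ_EA against control) is given as a description. Acta2, smooth muscle actin, measured 184 FPKM in control replicate 2, 69.3 FPKM in control replicate 1 and 55.1 to 82.8 FPKM elsewhere, and its log2 fold change of -0.78 ± 0.42 was -0.0067 without control replicate 2.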

How the data were processed

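Gene-level values of 6 mouse heart libraries, 2 in each of 3 groups, were used as deposited. Per the labels' protocols, RNA went through oligo(dT) selection and dUTP strand marking and was sequenced as read pairs. GRCm38, StringTie 1.3.4d, HISAT2 2.0.4 and cutadapt 1.9 are listed in the submitters' processing notes. For the annotation release, the strand setting and the order of these tools, nothing is given in the sources used here. The FPKM values and the estimated counts per gene are both columns of the table deposited by the authors, per the file headers. Estimated counts between 1 and 20 were multiples of 4 in 42.2% to 43.3% of cases, where 25% would fall by chance, so they are not plain read counts and counting precision cannot be read from them.

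Genes with a mean of at least 1 FPKM (10329) were tested on rounded counts with edgeR 4.0.16 (TMM scaling, quasi-likelihood test, 3 residual degrees of freedom over all libraries, Benjamini-Hochberg adjustment over all genes tested, threshold 0.05), in R 4.3.3. The quasi-likelihood test returns no SE. Each SE given here was the absolute log2 fold change divided by the square root of the test's F statistic. The 95% intervals were built from that SE. DESeq2 1.42.0, limma 3.58.1 on log2 FPKM with a pseudocount of 1 or 0.1, other scalings and filters, and the omission of each library were the alternatives. On simulated counts for these 10329 genes, edgeR recovered 26.9% of 2-fold and 92.5% of 4-fold changes for CFZ against control, 20.9% and 94.0% for CFZ_EA against CFZ, and 41.8% and 86.6% for CFZ_EA against control, with 15, 10 and 13 false calls. No libraries were identical. Gene models overlapping a sarcomere gene on its strand held at most 0.561% of its counts.

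The sarcomere genes, their classes and the other lists were chosen with earlier results of these data known. Values in every library are given for the 4 genes with the largest difference and the 2 with the smallest p in each comparison, the highest gene of each class and the isoform pairs, shown as shares for the minor isoforms. Of the 52 further genes, the 3 largest differences in each comparison are named. Pdlim5, Flnc, Ttn and Myom3 were added after their values were seen, as were Myl1, Pdlim3 and Tmod4 among the further genes. Promoter windows are those nearest the 5′ end of the deposited gene model.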

Additional observations from a re-analysis of the deposited data

How the results depend on the processing

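The 17 alternative fits of each comparison called no sarcomere gene, with 1 exception, Tnni3 in CFZ against control by DESeq2. The adjusted p by DESeq2 was 0.0132 there. In both comparisons with CFZ_EA the lowest adjusted p came from a fit that left 1 library in a compared group, and is not given. Genes called over all genes in CFZ against control numbered 3, but 138 with DESeq2, 0 with only the 2 groups compared, 0 with overlapping gene models summed, and 0 to 332 with 1 library left out. In CFZ_EA against CFZ they numbered 2, but 55 with DESeq2, 0 with overlapping models summed, and 0 to 4 with 1 library left out. In CFZ_EA against control they numbered 0, but 52 with DESeq2 and 0 to 231 with 1 library left out. The cause of these differences was not tested. With 1 library left out, median log2 fold changes of the sarcomere genes ran from -0.011 to 0.29 in CFZ against control. In CFZ_EA against control they ran from 0.058 to 0.33. Leaving out control replicate 2 gave the lowest values and leaving out control replicate 1 the highest.

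A fit without control replicate 2 and CFZ_EA replicate 2 together, chosen after seeing the data, called 32 genes in CFZ against control and 1 in CFZ_EA against control, with medians of -0.011 and 0.065. It reversed Myh7b to -0.046, Cmya5 to -0.077 and Acta2 to 0.049 in CFZ against control. In CFZ_EA against CFZ it reversed Mybpc3 to 0.050, Actc1 to 0.015 and Tpm2 to -0.16. In CFZ_EA against control it reversed Nebl to -0.25, Nexn to -0.65, Myl7 to -1.58, Myl4 to -1.41 and Mybphl to -1.64. Cmya5 in CFZ against control was also -0.0552 with library totals only and -0.0502 and -0.0524 by limma with pseudocounts of 1 and 0.1. Tpm1 in CFZ_EA against control was 0.013 with no filter and 0.00703 with a minimum of 0.1 FPKM.

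Without control replicate 2 the sarcomere genes above 0 went from 26 to 16 of 33 in CFZ against control and from 31 to 22 in CFZ_EA against control. Among the genes followed singly (those with values in every library by rule), signs turned with 1 library left out in CFZ against control for Myh7b (-0.057 to 0.56), Nebl (-0.36 to 0.34), Nexn (-0.74 to 0.32), Cmya5 (-0.077 to 0.085), Acta1 (-3.01 to 0.26) and Acta2 (-1.22 to 0.049). In CFZ_EA against CFZ they turned for Mybpc3 (-0.060 to 0.047), Actc1 (-0.12 to 0.013), Tnnc1 (-0.36 to 0.0036), Myom2 (-0.20 to 0.34), Tcap (-0.30 to 0.0040), Acta2 (-0.40 to 0.23), Tpm2 (-0.16 to 1.06) and Fhl1 (-0.20 to 0.088). In CFZ_EA against control they turned for Tpm1 (-0.12 to 0.10), Nebl (-0.0023 to 0.70), Nexn (-0.22 to 0.92), Myl7 (-1.18 to 1.38), Myl4 (-1.04 to 1.33), Mybphl (-1.31 to 1.46) and Tpm2 (-0.999 to 0.23). Taken from counts, which are not per length, mean minor-isoform shares were 3.74% for Myl4, 0.0124% for Tnni1 and 0.326% for Tpm2.

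Correlations of same-numbered deviations were -0.070, -0.062 and 0.075. With 2 libraries a group, these cannot show whether replicate numbers pair the libraries. With the replicate block 2, 2 and 0 genes were called, no sarcomere gene among them, and the medians were 0.12, 0.041 and 0.18. With 2 libraries a group, most simulated 2-fold changes were missed by edgeR, and smaller ones were not simulated. The changed genes were drawn at random from all tested genes with enough counts, so this recovery is not that of the sarcomere genes.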

Other observations

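Ablim1, an actin-binding LIM protein listed among the further sarcomere genes, differed more within groups than between them, and was chosen after its values were seen. It measured 20.1 and 3.58 FPKM in control, with 6.54 and 22.0 FPKM in CFZ and 5.60 and 20.5 FPKM in CFZ_EA, so that each group had 1 high and 1 low library. Acta1 measured 24.8 FPKM in CFZ replicate 1 and between 166 and 399 FPKM in the other 5 libraries.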
